A study of Mus musculus with 8 samples.

Results

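The genes described here are 39 mouse genes of actin contractility, focal adhesion and YAP signalling, followed through cell lines that gained or lost the transcription factor TCF-1. They were chosen by name, at a time when earlier results of these data were known. Of them, 16 encode contractile proteins of the actin cytoskeleton and 16 encode focal adhesion and actin-linker proteins. The other 7 belong to the YAP and serum response factor circuits. All 39 were listed in both gene tables, which held 53465 genes for the fibroblast line and 31053 for the thymic line. The series asks how TCF-1, the HMG-box protein encoded by Tcf7, reorganises the folding of the genome in developing T cells, and RNA-seq was made from 8 libraries in 4 groups of 2.

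The first pair of groups was NIH-3T3, a mouse embryonic fibroblast line that lacks the T cell programme. Its normal group is labelled wild type and untreated, and its induced group carries the label TCF1 induced. The headers of all 4 3T3 count files name Cas9, an empty LRG21 vector, pIND21 P33 and 72 hours, and only those of the induced libraries name dox. By these headers the normal libraries carried the same constructs, so an effect of the drug and one of TCF-1 cannot be told apart. The second pair was Scid.adh, a lymphoma line used as a model of DN3 thymocytes, the double-negative precursors that have committed to the T lineage. Its control group is wild type with an empty vector, and its other group is labelled Tcf7-/-, the TCF1 knockout. The sources used here give no clones and no culture conditions, and do not say whether replicate libraries were grown separately. The tests therefore reflect variation from library to library, part of which may be technical.

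Cells pull on their surroundings through bundles of actin and nonmuscle myosin II, which calponins, transgelins and tropomyosins decorate and alpha-actinins and filamins cross-link. The bundles end at focal adhesions, where talin, vinculin, paxillin, zyxin and their LIM-domain partners couple them to integrins. Pulling feeds back on transcription by way of YAP and TAZ, which bind DNA through TEAD factors, and by way of MRTF, a partner of serum response factor that is released as actin monomers are used up. Spread fibroblasts run this machinery at a high level, whereas thymocytes move with a lighter cortical version of it.

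Total counts ran from 13850213 to 17523677 per library in 3T3 and from 7740198 to 10392402 in Scid.adh. Tcf7 itself rose from 14.4 and 14.7 CPM (counts scaled to a common library size) in normal 3T3 libraries to 946 and 972 CPM in induced ones. It fell from 1318 and 1325 CPM to 646 and 624 CPM in the knockout, so knockout libraries still held Tcf7 reads. Whether part of the transcript is missing, or in what share of the cells, cannot be seen in gene totals. The labelled cell types were checked against marker genes. In 3T3, 8 fibroblast markers summed to between 23800 and 26300 CPM and 9 DN3-like thymocyte markers to between 7.58 and 8.43 CPM. In Scid.adh the thymocyte markers summed to between 3590 and 4320 CPM, although the DN3-defining genes Rag2 and Dntt were near 0, at no more than 1.07 CPM in any library. In such bulk libraries fewer cells of a type and less RNA per cell cannot be told apart.

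Sequence just upstream of the members was searched for the letters that the factors named above recognise, because many of these genes are textbook targets of SRF and TEAD. RefSeq windows on GRCm38.p6, from 250 bases before to 50 after each start site, were found for 35 of the 39 genes, 45 windows in all, some of which overlap. The motifs, read on both strands, were the CArG box of serum response factor (CC, 6 of A or T, GG), the TEAD site GGAATG and the TCF/LEF site CTTTGAA or CTTTGAT. No match of one motif overlapped a match of another in the windows printed below. A CArG box was found in 7 of the 45 member windows (15.6%) and in 1.63% of 32851 windows of all genes. GGAATG was found in 40.0% of member windows against 14.7% of all, and the TCF/LEF letters in 11.1% against 8.65%. The 6 genes below show each kind of match and were picked to include rising and falling members. Each run is the 250 bases before the start site, 5′ to 3′ on the gene's strand, with the matches in capitals: CArG boxes in Cnn2 and Fhl2, TEAD letters in Tagln2 (on the opposite strand, so read as CATTCC) and Ankrd1, the TCF/LEF letters in Tes, and both TCF/LEF and TEAD letters in Wwtr1.
Cnn2 (chr10:79988350-79988599, plus strand): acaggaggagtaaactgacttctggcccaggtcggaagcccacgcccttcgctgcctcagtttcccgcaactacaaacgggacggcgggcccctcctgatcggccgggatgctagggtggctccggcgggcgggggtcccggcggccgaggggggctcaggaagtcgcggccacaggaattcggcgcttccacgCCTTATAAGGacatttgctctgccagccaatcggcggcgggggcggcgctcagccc
Fhl2 (chr1:43196762-43197011, minus strand): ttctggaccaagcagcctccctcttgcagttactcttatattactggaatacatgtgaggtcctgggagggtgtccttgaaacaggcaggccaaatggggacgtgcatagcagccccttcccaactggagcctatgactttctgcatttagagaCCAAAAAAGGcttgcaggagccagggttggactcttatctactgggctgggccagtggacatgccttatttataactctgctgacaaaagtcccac
Tagln2 (chr1:172499996-172500245, plus strand): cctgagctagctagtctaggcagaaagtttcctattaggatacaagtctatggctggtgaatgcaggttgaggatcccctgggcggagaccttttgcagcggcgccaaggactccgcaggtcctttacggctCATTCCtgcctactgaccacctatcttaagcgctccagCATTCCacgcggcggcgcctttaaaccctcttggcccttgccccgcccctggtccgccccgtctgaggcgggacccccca
Ankrd1 (chr19:36119845-36120094, minus strand): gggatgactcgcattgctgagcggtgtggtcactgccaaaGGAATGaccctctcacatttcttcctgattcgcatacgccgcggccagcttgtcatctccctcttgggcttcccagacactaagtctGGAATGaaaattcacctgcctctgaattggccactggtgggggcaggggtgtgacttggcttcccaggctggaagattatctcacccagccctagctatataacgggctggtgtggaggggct
Tes (chr6:17064899-17065148, plus strand): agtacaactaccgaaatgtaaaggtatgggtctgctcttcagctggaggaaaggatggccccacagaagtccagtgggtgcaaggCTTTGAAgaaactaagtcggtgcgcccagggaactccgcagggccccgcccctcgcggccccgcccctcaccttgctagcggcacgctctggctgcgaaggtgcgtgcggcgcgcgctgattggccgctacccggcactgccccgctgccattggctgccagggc
Wwtr1 (chr3:57575911-57576160, minus strand): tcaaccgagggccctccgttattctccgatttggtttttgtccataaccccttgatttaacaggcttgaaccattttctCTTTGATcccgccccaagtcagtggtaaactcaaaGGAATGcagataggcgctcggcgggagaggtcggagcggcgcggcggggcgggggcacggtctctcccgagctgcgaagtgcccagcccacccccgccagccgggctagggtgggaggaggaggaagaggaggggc
In Cnn2 the CArG box began 56 bases upstream of the start site and in Fhl2 96 bases upstream. A second start site of Fhl2 had its own CArG box, 31 bases upstream. The TEAD letters of Tagln2 began 118 and 80 bases upstream, and those of Ankrd1 210 and 123 bases upstream. The TCF/LEF letters began 165 bases upstream in Tes and 171 in Wwtr1, where GGAATG followed at 136. A match of letters is a description and not a measured binding site.

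Induction of TCF-1 in 3T3 cells was followed by opposed changes within the gene set and not by a shift of the whole. Of the 39 members, all tested, 17 rose and 13 fell at an adjusted p under 0.05 in edgeR's quasi-likelihood test (Benjamini-Hochberg adjusted over all genes), and 9 did not pass. That is 76.9% of the members called, where 36.8% of all 18185 genes tested were, 18.5% as higher and 18.3% as lower. Members are well expressed, and of all genes averaging 10 CPM or more 51.5% were called, as were 30 of the 37 members at that level. The median log2 fold change of the members was 0.04, beside 0.00 over all genes tested. Induced minus normal had a trend with exon length over genes averaging 5 CPM or more. Its median log2 value was 0.05 in the shortest of 5 equal classes of genes and -0.07 in the longest. The part of this trend in the smaller changes was not tested beyond a correction for length, which gave 17 members higher and 11 lower. Libraries of the groups did not overlap for 35 of the 39 members, as for 65.1% of all genes. Most changes were small: against a change of 1.5-fold only Tes and Ankrd1, lower, and Tagln2, higher, passed, as did 5.04% of all genes. Per kilobase of exon, Acta2, Myh9 and Flna were the most abundant members in normal cells, at 218, 194 and 160 CPM per kb.

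**Figure D1:**
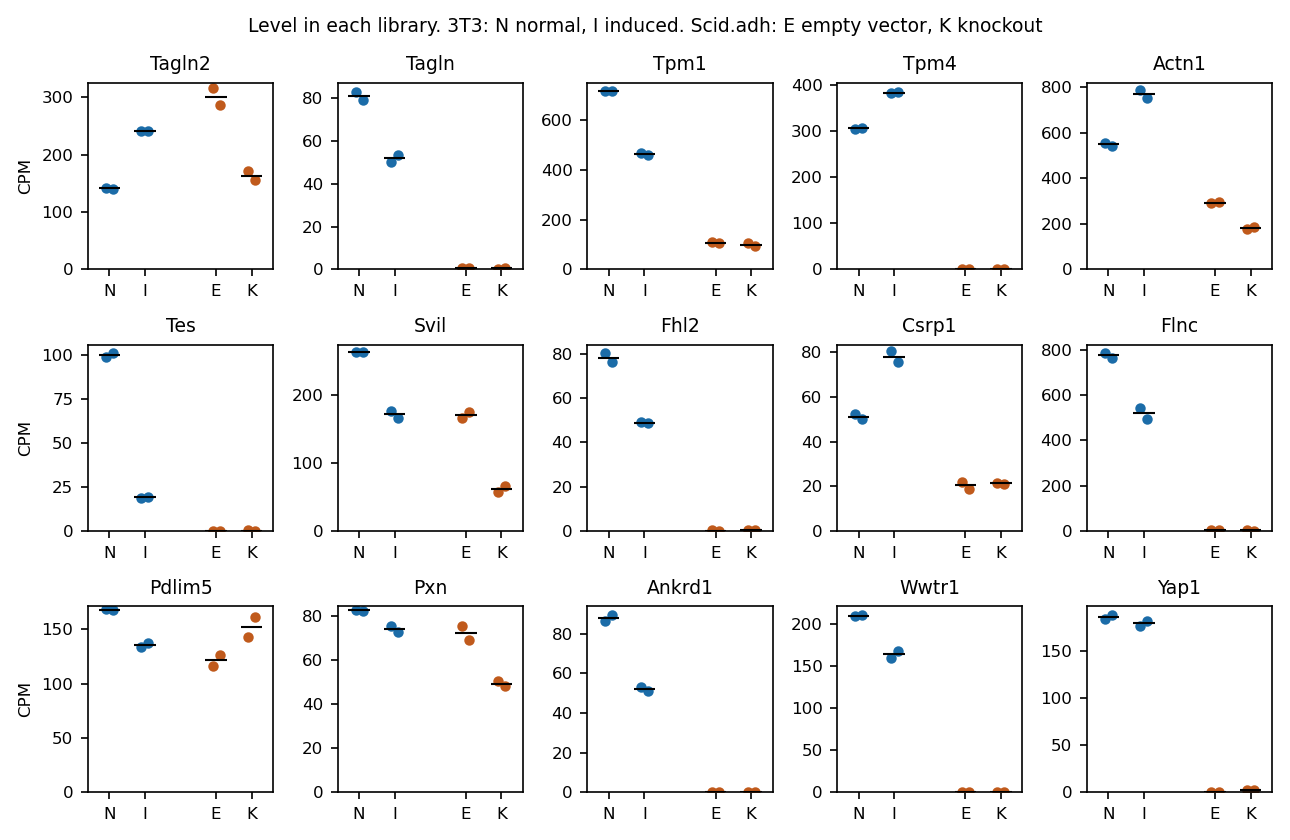
CPM of 15 members in each library (points) with the mean of each group (line); axes start at 0. Tes falls to 19.0 and 19.3 CPM in induced 3T3 cells, Tagln2 rises there and falls in the knockout, and Tes, Tagln, Tpm4, Fhl2, Flnc, Ankrd1, Wwtr1 and Yap1 lie close to 0 in Scid.adh.

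Among the contractile genes, 8 of 16 rose and 4 fell in induced 3T3 cells, with a median log2 fold change of 0.17. The transgelins, small actin-bundling proteins, moved in opposite directions. Tagln2, the form of nonmuscle cells, measured 142 and 140 CPM in normal libraries and 242 and 241 CPM in induced ones. Tagln, the smooth muscle form SM22, went the other way, from 82.9 and 79.2 CPM to 50.2 and 53.3 CPM. Neither gene's groups overlapped, with a log2 fold change of 0.78 (SE 0.04, adjusted p = 7.06e-21, edgeR) for Tagln2 and of -0.65 (SE 0.06, adjusted p = 2.95e-13) for Tagln. Exons of Tagln overlap those of a gene model on the opposite strand, Gm48529, whose counts fell alongside it from 1214 and 1266 to 788 and 662. Whether counting used the strand is not given in the sources used here, so reads of this pair cannot be told apart. In all, 13 of the 39 members share exon bases with another gene model, Tpm4, Actn1, Actn4 and, over 144 bases, Tes among them. Vcl shares 2090 bases with Ap3m1 on the opposite strand, which rose in 3T3 (log2 change 0.17, adjusted p = 0.00169, edgeR). Reads of that stretch cannot be told apart either.

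Tropomyosins, the coiled-coil proteins that line actin filaments and govern access of myosin, shifted among themselves while their pool stayed level. Tpm1, a stress fibre form, dropped from 716 CPM in both normal libraries to 465 and 458 CPM (log2 change -0.63, SE 0.03, adjusted p = 3.37e-21). Tpm4 climbed from 306 and 308 CPM to 383 and 386 CPM (0.32, SE 0.04, adjusted p = 1.19e-10). Tpm3 rose less, from 140 and 132 CPM to 159 and 157 CPM, and Tpm2 did not pass the test at 195 and 191 CPM against 192 and 182 CPM. Summed per kilobase of exon, the 4 genes gave 339 and 338 CPM per kb in normal cells and 338 and 334 CPM per kb in induced cells. Within that sum the share of Tpm1 went from 32.5% and 32.7% to 21.2% and 21.1%, and that of Tpm4 from 40.9% and 41.4% to 51.5% and 52.4%. These shares treat each gene as 1 length over all its exons, and splice forms are not separated in gene counts.

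The calponins, which bind actin and tropomyosin, held 1 rising member. Cnn2 rose from 145 and 143 CPM to 185 and 178 CPM (log2 change 0.33, SE 0.04, adjusted p = 8.1e-09). Cnn3 measured 291 and 285 CPM against 292 and 301 CPM, and the smooth muscle form Cnn1 lay between 1.01 and 1.94 CPM in all 4 libraries. Neither of these passed.

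Of the nonmuscle myosin II heavy chains, Myh9 rose from 2529 and 2484 CPM to 2914 and 2775 CPM (log2 change 0.18, SE 0.03). Myh10 fell from 394 and 374 CPM to 353 and 333 CPM (-0.16, SE 0.04), a call that was lost without the first normal library (-0.12). The share of Myh9 in the pair went from 83.9% and 84.3% to 87.0% and 87.1%. Both light chains rose. Myl6, the essential chain, went from 171 CPM in both normal libraries to 213 and 203 CPM, and Myl9, a regulatory chain, from 9.38 and 8.79 CPM to 13.0 and 10.4 CPM. The rise of Myl9 was not called without the first induced library (0.21) or the second normal one. Acta2, smooth muscle actin, rose by 0.18 on the log2 scale from 484 and 472 CPM to 547 and 535 CPM. Caldesmon (Cald1) measured 1757 and 1699 CPM against 1632 and 1638 CPM, and its call (-0.08, adjusted p = 0.0266) was lost without either normal library and when a trend with exon length was taken out. Actg2, a further smooth muscle actin, was at 5.26 and 6.43 CPM against 6.48 and 6.63 CPM and did not pass.

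**Figure D2:**
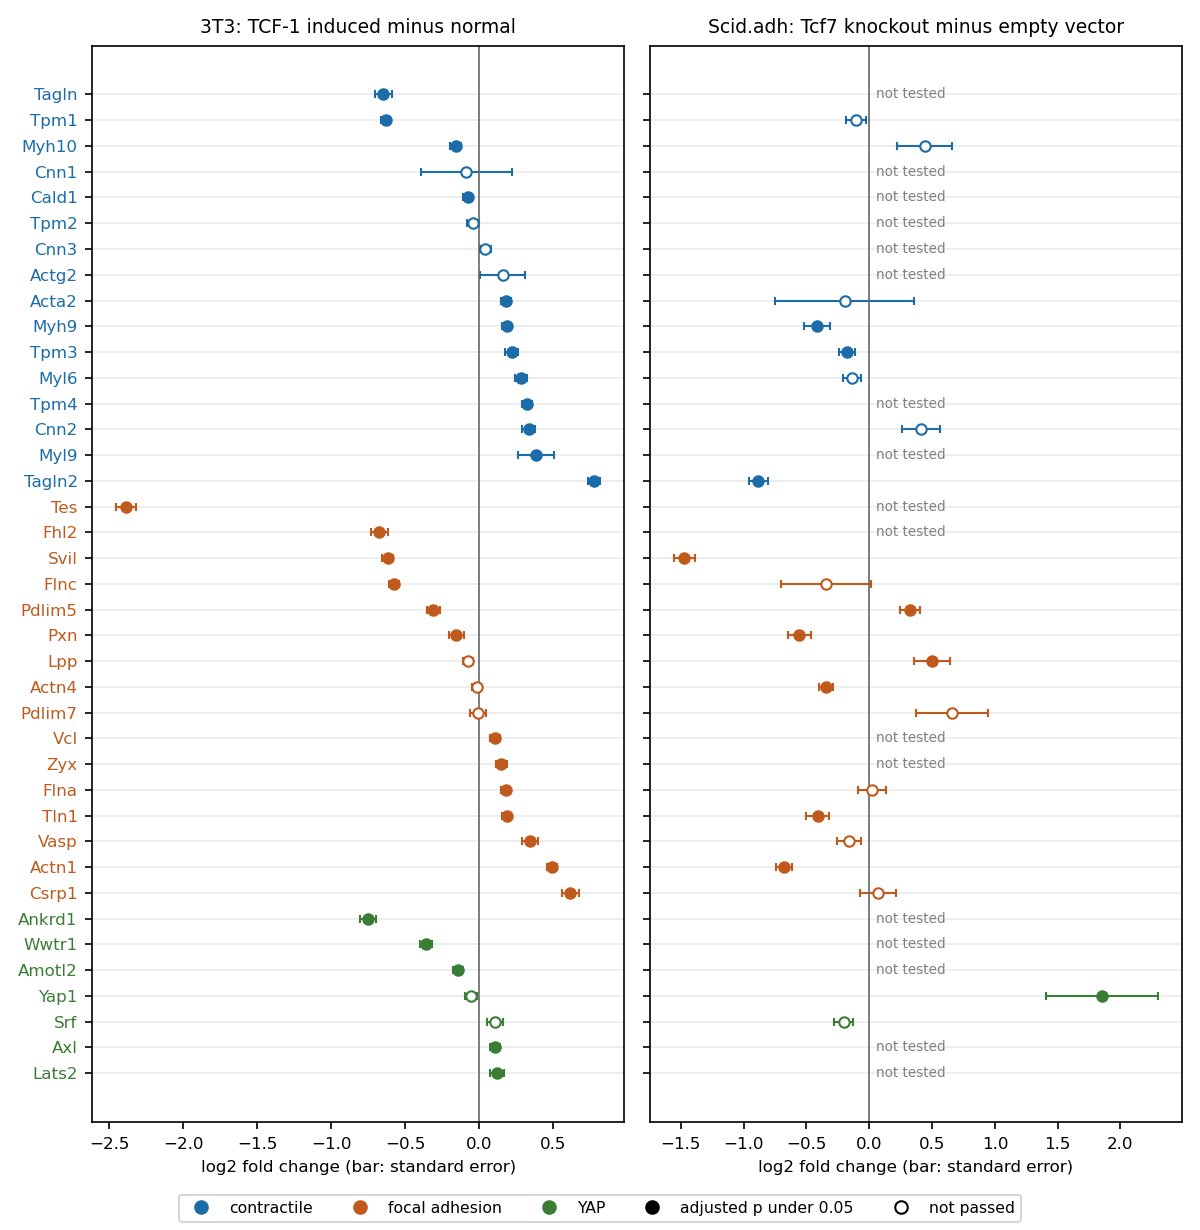
Log2 fold change of every member with its standard error, in 3T3 (left, induced minus normal) and Scid.adh (right, knockout minus empty vector); filled points passed an adjusted p of 0.05, open points did not, and 17 members were too low to test in Scid.adh. Tes stands furthest left in 3T3 at -2.39 and Svil in Scid.adh at -1.47.

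In the focal adhesion group 7 of 16 genes rose and 6 fell in 3T3, with a median log2 fold change of -0.01. Tes, which encodes testin, a LIM-domain partner of zyxin, had the largest change of all members. Its levels were 99.0 and 101 CPM in normal libraries and 19.0 and 19.3 CPM in induced ones, a 5.23-fold lower level (log2 change -2.39, SE 0.07, adjusted p = 2.6e-31). Of 11482 genes averaging 5 CPM or more, only 1 had a lower log2 fold change. Fhl2, a LIM-only protein that shuttles between adhesions and the nucleus, fell from 80.1 and 76.3 CPM to 49.0 and 48.8 CPM (-0.68, SE 0.06). Supervillin (Svil), which ties myosin to the membrane, fell from 264 and 263 CPM to 176 and 167 CPM (-0.62, SE 0.04). Filamin C (Flnc), the muscle filamin, fell from 785 and 767 CPM to 545 and 496 CPM (-0.58, SE 0.04). In none of these 4 did the groups overlap.

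The risers of the group were led by Csrp1, a LIM protein of actin bundles, at 52.2 and 50.3 CPM in normal cells and 80.5 and 75.8 CPM in induced cells (log2 change 0.61, SE 0.06, adjusted p = 1.68e-12). Alpha-actinin 1 (Actn1) followed, with 554 and 543 CPM against 787 and 752 CPM (0.49, SE 0.03, adjusted p = 3.88e-17). Its paralogue Actn4 did not pass, at 446 and 444 CPM against 445 and 434 CPM, so the share of Actn1 in the pair went from 57.9% and 57.5% to 66.2% and 65.7%. Vasp, a filament elongation factor that binds zyxin, rose from 59.8 and 56.9 CPM to 73.7 and 74.0 CPM (0.34, SE 0.06). Talin (Tln1) rose from 553 and 531 CPM to 622 and 607 CPM (0.18, SE 0.03). Filamin A (Flna) rose from 1511 and 1492 CPM to 1733 and 1663 CPM while Flnc fell, and the share of Flna in the filamin pair went from 65.8% and 66.1% to 76.1% and 77.0%.

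The remaining adhesion genes moved by at most 0.31 on the log2 scale. Pdlim5, an adaptor between alpha-actinin and kinases, fell from 169 and 168 CPM to 134 and 138 CPM, and its relative Pdlim7 did not pass, at 81.1 and 78.0 CPM against 80.7 and 77.0 CPM. Paxillin (Pxn) fell from 83.0 and 82.5 CPM to 75.6 and 72.9 CPM. Its call was lost without either normal library (-0.15 and -0.16) and when the trend with exon length was taken out (-0.11). Vinculin (Vcl), with a log2 fold change of 0.10, also lost its call without either normal library (0.11 and 0.10), and zyxin (Zyx), with 0.15, without the second (0.12). Lpp, a zyxin relative, did not pass at -0.08 (adjusted p = 0.0657), and was called lower without the second induced library (-0.11).

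**Figure D3:**
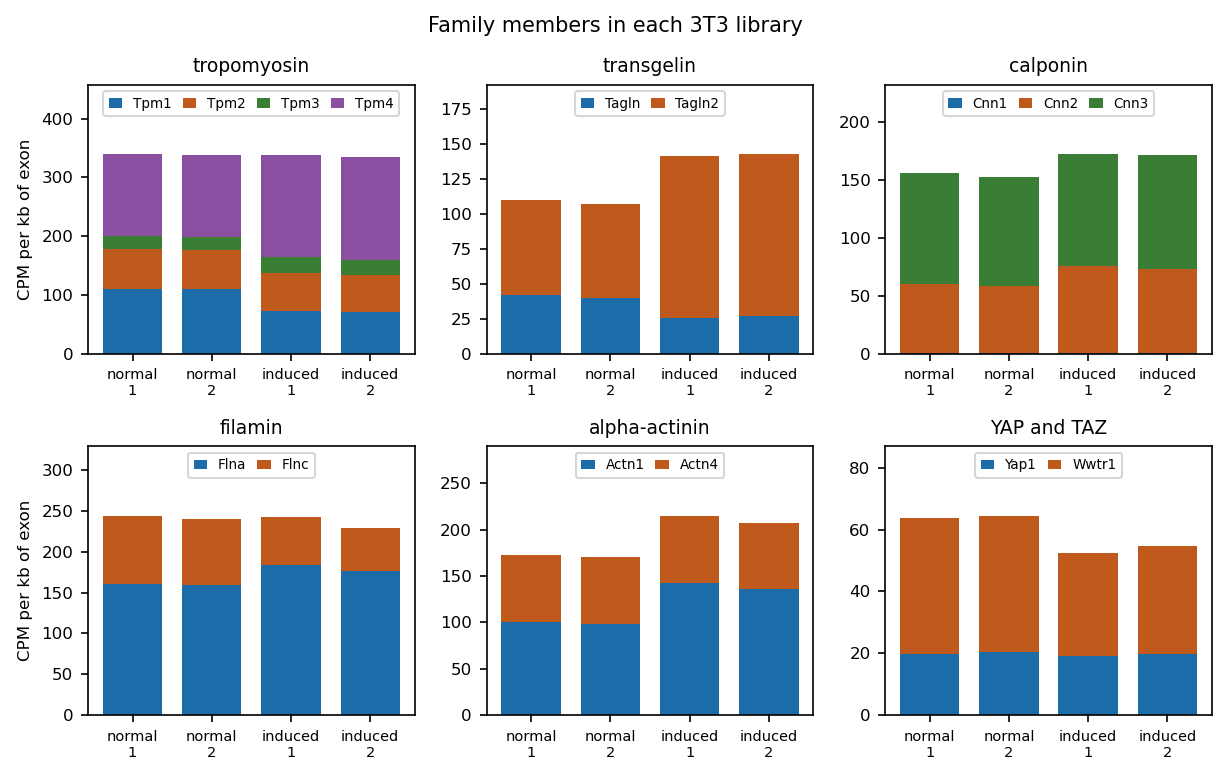
CPM per kb of exon in each 3T3 library for 6 families, stacked by gene. The tropomyosin columns keep their height near 338 CPM per kb while the Tpm1 part shrinks and the Tpm4 part grows; transgelin and alpha-actinin columns grow through Tagln2 and Actn1.

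In the YAP group 2 of 7 genes rose and 3 fell in 3T3, with a median log2 fold change of -0.06. Ankrd1, a muscle ankyrin-repeat protein and a standard readout of YAP activity, fell from 86.5 and 89.6 CPM to 53.0 and 51.4 CPM (log2 change -0.75, SE 0.06, adjusted p = 9.59e-16). Wwtr1, which encodes TAZ, fell from 210 and 211 CPM to 160 and 168 CPM (-0.36, SE 0.04, adjusted p = 5.06e-10). Its paralogue Yap1 did not pass, at 184 and 188 CPM against 176 and 182 CPM. Per kilobase of exon the pair summed to 63.7 and 64.5 CPM per kb in normal cells and to 52.5 and 54.8 CPM per kb in induced cells, with Wwtr1 at 68.8% and 68.5% of it before and 63.8% and 64.2% after. These are transcript levels, and the location and phosphorylation of the proteins, by which the pathway is mainly controlled, were not measured.

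Other YAP-group genes changed little. Amotl2, an angiomotin that is both a target and an inhibitor of YAP, fell from 950 and 910 CPM to 856 and 826 CPM (log2 change -0.15), a call lost without the first normal library (-0.11). Axl, a receptor kinase, rose by 0.10 on the log2 scale, from 780 and 749 CPM to 834 and 809 CPM, and lost its call without the second normal library (0.08). Lats2, the kinase that restrains YAP, measured 126 and 117 CPM against 129 and 135 CPM (0.12, adjusted p = 0.0398). Without the second induced library its value was 0.09 and without the second normal library 0.07, and neither passed, nor did it without the first normal library. Its exons overlap a gene model on the same strand, Gm49361, with 1361 and 1371 counts against 1509 and 1288. Srf did not pass, at 69.7 and 66.5 CPM against 72.4 and 73.7 CPM.

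Genes of the same pathways outside the 39 also went both ways in 3T3, as did all genes tested (18.5% higher and 18.3% lower). Called shares were 58.3% in the Hippo and YAP-partner list and 56.5% among focal adhesion kinases and adaptors. The share was 51.5% over all genes averaging 10 CPM or more and 36.8% over all genes tested. Of 24 Hippo and YAP-partner genes, 4 rose and 10 fell. The deepest falls were those of Amot, the founding angiomotin, from 204 and 196 CPM to 80.1 and 81.2 CPM, and of Tgfb2, by log2 fold changes of -1.31 and -0.77. Wwc1 and Tead3 rose, by 0.51 and 0.42. The best known YAP targets, looked up after the values were seen, differed: Ccn2 fell from 259 and 256 CPM to 167 and 174 CPM (-0.59), and Ccn1 did not pass (-0.06). Among 23 tested focal adhesion kinases and adaptors 10 rose, Pdlim2 (1.26) and Sorbs3 (0.40) furthest, and 3 fell, Fermt2 (-0.39) and Bcar1 (-0.38) among them. Of 7 further smooth muscle genes with enough reads in both groups, Lmod1 and Mustn1 rose (1.75 and 1.73, from under 5 CPM in each normal library), and Smtn (-0.65) and Mylk (-0.30) fell. Pln, over the filter in normal libraries alone, had 22 and 21 counts against 7 in both induced libraries.

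In Scid.adh cells much of the set was barely transcribed. In empty-vector cells 17 members had a mean of at least 10 CPM and 17 a mean under 1 CPM. Only 22 of the 39 had enough reads to test. The levels per kilobase of exon were highest for Tagln2, Myh9 and Myl6, at 145, 121 and 70.6 CPM per kb. A single paralogue made up nearly the whole of several families: Tagln2 over 99% of the transgelin pair, Myh9 over 98% of the myosin pair and Cnn2 from 94.0% to 98.3% of the calponins. Tpm3 made up from 69.9% to 72.6% of tropomyosin, and Tpm1 nearly all the rest. The alpha-actinins were both present, with Actn1 at 45.4% and 46.2% of the pair.

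Of the 22 tested members 3 rose and 8 fell in the knockout, and 11 did not pass. Leaving out Yap1, which entered the test through its knockout libraries alone, 2 of 21 rose and 8 fell. The called share was 50% of those tested, beside 31.5% of all 11941 genes tested (15.6% higher and 15.9% lower), and 10 of the 17 members at 10 CPM or more were called beside 30.4% of all genes at that level. Libraries of the groups did not overlap for 17 of the 22, as for 66.7% of all genes. The median log2 fold change was -0.17 against 0.00 over all genes. Calls over all genes were 1861 higher and 1899 lower, and with upper-quartile scaling 2455 higher and 1215 lower, where the members gave 4 and 7. The knockout libraries themselves differed with exon length: replicate 2 minus replicate 1 had a median log2 value of -0.09 in the shortest of 5 equal classes of genes and 0.11 in the longest. Yap1, again left out, had 2.07 and 2.49 CPM in the knockout libraries. Of the 7 other tested members with at least 9 kb of exon, 5 lay higher in the second knockout library (Lpp, Myh9, Svil, Tln1 and Flna). Myh10 and Flnc, both under 10 CPM there, lay lower. The part of this trend in the results of the members was not tested beyond a correction for length. That correction kept 8 members lower and gave 4 higher.

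Svil had the largest fall of the members in the knockout, from 166 and 175 CPM to 56.7 and 66.2 CPM, 2.77-fold lower (log2 change -1.47, SE 0.08, adjusted p = 1.28e-07, edgeR). Tagln2 fell from 316 and 286 CPM to 171 and 156 CPM (-0.88, SE 0.07, adjusted p = 3.36e-06). These were the members that also passed the test against 1.5-fold, as did 6.06% of all genes. Actn1 fell from 290 and 294 CPM to 178 and 188 CPM (-0.68, SE 0.06, adjusted p = 9.09e-06). Its paralogue Actn4, which had not passed in 3T3, fell from 387 and 379 CPM to 301 and 302 CPM (-0.35, SE 0.06), and this change differed between the lines (0.33, adjusted p = 0.000495). The pair went from 116 and 115 CPM per kb to 81.2 and 83.2 CPM per kb. In these genes the groups lay well apart.

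Paxillin and talin also fell in the knockout. Pxn went from 75.8 and 69.2 CPM to 50.5 and 48.2 CPM (log2 change -0.56, SE 0.09, adjusted p = 0.000794). Tln1 went from 598 and 561 CPM to 385 and 487 CPM (-0.41, SE 0.09, adjusted p = 0.00698). Myh9 had 1571 and 1548 CPM against 1019 and 1319 CPM (-0.42, SE 0.11, adjusted p = 0.018), and DESeq2 did not call it. Tpm3 fell from 262 and 268 CPM to 241 and 227 CPM (-0.18, adjusted p = 0.0442). Its call was lost without either empty-vector library (values of -0.2 and -0.18), with other size factors, a higher expression filter or DESeq2, and with the replicate number as a block. Both Tln1 and Myh9 lay lower in the first knockout library than in the second, without overlap between the groups.

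The members that rose in the knockout were fewer. Pdlim5 rose from 116 and 127 CPM to 143 and 162 CPM (log2 change 0.33, SE 0.08, adjusted p = 0.00775), and lost its call without the first empty-vector library (0.25). Lpp had 48.0 and 43.8 CPM against 53.5 and 76.1 CPM (0.50, SE 0.14), and without the second knockout library its value fell to 0.22 and did not pass. Yap1 was called on few reads, 5 and 7 counts against 17 and 21 (log2 change 1.85, SE 0.45, adjusted p = 0.00745). It passed the filter through the knockout libraries alone, and DESeq2 or a fit without the first empty-vector library did not call it (1.88 and 1.58 on the log2 scale).

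No difference was called for the remaining members with many reads. Flna read 485 and 484 CPM against 424 and 560 CPM, so its groups overlapped, and the sign of its call turned with the library left out: 0.20 without the first knockout library and -0.19 without the second. Cnn2 was at 15.7 and 13.8 CPM against 19.5 and 19.8 CPM (log2 change 0.41, adjusted p = 0.0545), and was called higher with the replicate block (0.41), upper-quartile factors (0.49), the joint fit (0.39) and the length correction (0.47). Tpm1 was at 110 and 104 CPM against 106 and 93.8 CPM, and Myl6 at 230 and 220 CPM against 215 and 194 CPM. Without the first knockout library Tpm1 (-0.21), Myl6 (-0.22) and Vasp (-0.29) were called lower and Pdlim7 (0.84) higher. Srf, with 88.0 and 91.6 CPM against 77.1 and 78.8 CPM, had an adjusted p of 0.0642, and Vasp, Csrp1, Myh10, Pdlim7, Flnc and Acta2 did not pass with all libraries either.

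The 17 members that could not be tested in Scid.adh had from 0 to 19 counts in any library. Together they gave 5.34 and 5.02 CPM in empty-vector cells and 10.3 and 10.4 CPM in knockout cells, from 53, 47, 85 and 88 counts. Summed counts were higher in the knockout for 14 of the 17, all but Tagln, Vcl and Lats2, although knockout libraries were shallower. The share with higher counts among all genes too low to test was not worked out, so the 14 are not read as a result about these members. The 8 fibroblast markers summed to 122 and 127 CPM with the empty vector and to 11.8 and 11.2 CPM in the knockout. Pdgfrb, which fell from 120 and 125 CPM to 4.38 and 3.80 CPM, made up most of that sum with the empty vector. The other 7 summed to 2.01 and 1.60 CPM with the empty vector and to 7.42 and 7.36 CPM in the knockout. Pdgfrb was left out of this last sum after its values were seen, so the 7 are a picked subset. More genes had at least 1 count in the knockout libraries, 20406 and 20463, than in the empty-vector libraries, 18084 and 18041. The part of this wide low-level rise in the values of Yap1 and of the untested members was not tested.

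**Figure D4:**
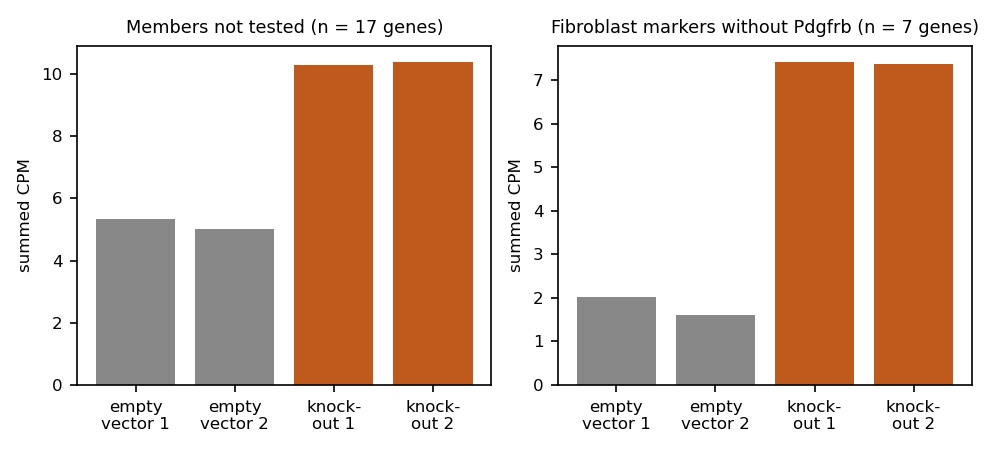
Summed CPM per Scid.adh library of the 17 members too low to test (left) and of 7 fibroblast markers (right). Pdgfrb, which fell, was left out of the markers after its values were seen. With it the marker sum fell, from 122 and 127 CPM to 11.8 and 11.2 CPM. Grey bars are empty-vector libraries and orange bars knockout libraries. Both sums drawn are higher in each knockout library, 10.3 and 10.4 CPM on the left and 7.42 and 7.36 CPM on the right.

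The wider pathway lists were read in Scid.adh over genes with enough reads in both groups. Another 7 genes were called higher but entered the test through the knockout libraries alone, where they are high, so they are left out of these counts: Ajuba, Ccn1 and Crim1 of the Hippo list, and Bcar1, Fermt2, Enah and Pdlim2 of the adhesion list. In the Hippo list 3 of 15 rose, Tead1 (1.34 on the log2 scale) and Wwc2 (1.09) furthest, both of which lost their call with DESeq2 or without the second empty-vector library. In the same list 4 fell, led by Amotl1 (-1.75, from 44.3 and 38.8 CPM to 13.6 and 11.2 CPM) and Ptpn14 (-0.48). Among kinases and adaptors of focal adhesions 4 of 15 rose, Src (1.64) and Evl (0.49) furthest, both lost with DESeq2 or without the first empty-vector library. The talin paralogue Tln2 (-0.63) and the blood-cell kindlin Fermt3 (-0.32) fell. Of the further smooth muscle genes only Smtn had enough reads in both groups, and it fell (-0.78). Over all 11941 genes tested, with no such limit on the groups, 15.6% were called higher and 15.9% lower.

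Of the members tested in both lines, 5 of 22 rose in induced 3T3 cells and fell in knockout Scid.adh cells: Tagln2, Actn1, Tln1, Myh9 and Tpm3. They were 5 of the 11 members that rose in 3T3 and of the 8 that fell in Scid.adh. Over all 11038 genes tested in both lines this pattern held for 4.77%, which was 21.9% of the 3T3 risers and 29.5% of the Scid.adh fallers. The mirror pattern held for Pdlim5 alone, beside 3.06% of all genes. Svil and Pxn fell in both lines, beside 3.17% of all genes, and no member rose in both, beside 2.6%. Of these genes Tagln2 was called in both lines in every setting, and Actn1 and Svil in every setting but the test against 1.5-fold. Svil passed that test in Scid.adh and not in 3T3, and Actn1 passed it in neither line. Other settings lost the calls of Myh9 in both lines, of Tpm3 and Pdlim5 in Scid.adh, and of Tln1 and Pxn in 3T3.

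**Figure D5:**
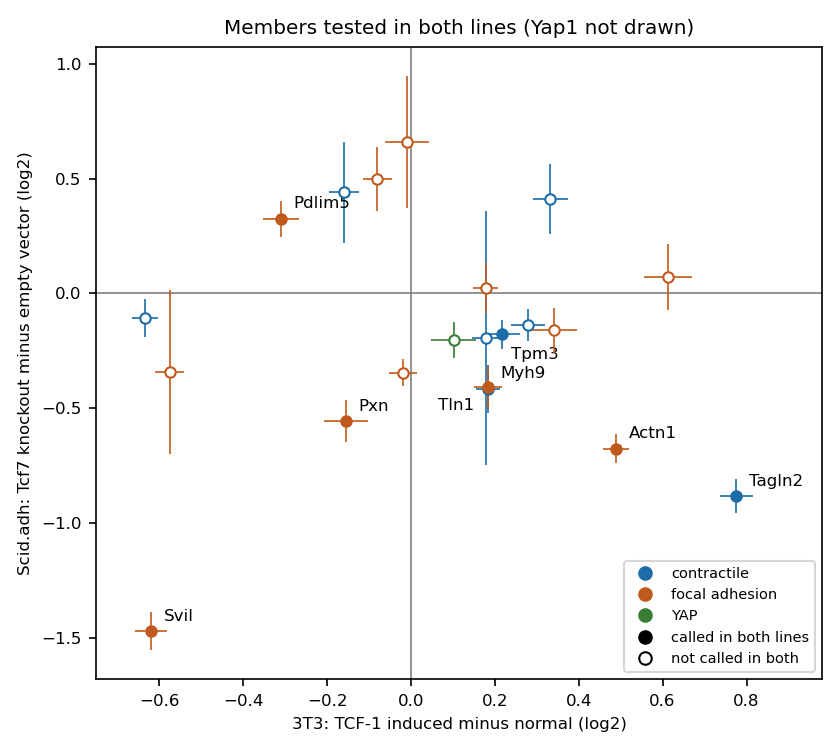
Log2 fold change in 3T3 (horizontal) against Scid.adh (vertical) for 21 of the 22 members tested in both lines, with standard errors; filled, named points were called in both. Tagln2 and Actn1 lie furthest into the lower right, and Svil and Pxn are the named points at the lower left.

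Whether a member's change differed between the lines was tested in 1 fit of all 8 libraries. Among the 21 members with enough reads in both groups of both lines the difference was called for 17. Induced minus normal in 3T3 lay above knockout minus empty vector in Scid.adh for 12 of them and below it for 5. Over all 15854 genes of the fit the difference was called for 30.7%, 14.6% and 16.1% in these directions. Those genes include ones with few reads in a line, and the share at a like filter was not worked out. A further 8 members were called with few Scid.adh reads in at least 1 group, and nothing is read from their number or size. The widest differences on firm counts were those of Tagln2 (1.66, SE 0.08, adjusted p = 7.43e-17) and Actn1 (1.17, SE 0.07, adjusted p = 2.09e-14). Svil fell in both lines and by less in 3T3 (difference 0.85, SE 0.09). Tpm1, which fell in 3T3 and was not called in Scid.adh, differed too (-0.52, SE 0.08, adjusted p = 9.46e-06), as did Csrp1 (0.54) and Vasp (0.50). For Cnn2, Flna, Flnc and Acta2 the difference did not pass, which does not show that they responded alike.

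Matching letters were found upstream of rising and of falling members. Of the 6 genes with a CArG box, Cnn2, Myl6, Myl9 and Vcl rose in induced 3T3 cells, Fhl2 fell and Srf did not pass. The calls of Myl9 and Vcl were lost in several settings, DESeq2 and the joint fit among them. Of the 16 genes with TEAD letters 6 rose, 7 fell and 3 did not pass, and Tagln2 and Ankrd1, each with a pair of matches in the windows shown, moved in opposite directions. Among the genes with TEAD letters, the calls of Cald1, Lats2, Axl, Amotl2, Myh10, Vcl and Flna were lost in some other setting. The genes with TCF/LEF letters were Tes, Wwtr1 and Amotl2, which fell in 3T3, and Vasp, which rose. Over all genes tested in 3T3, 18.5% were called higher and 18.3% lower.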

How the data were processed

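RNA-seq gene counts of 8 libraries were used as the authors deposited them, 1 file per library. Per the submitters' processing notes, STAR 2.5.0a, HTSeq 0.6.1 and GRCm38 (mm10) were used; the sources used here do not give the program behind the 3T3 counts, the annotation release or the strand setting. Per the labels' protocols, libraries came from a stranded total RNA kit and were read in pairs. Rows of unassigned reads, held by the Scid.adh files alone, were left out (outside genes 21.3% to 25.8%, ambiguous 2.2% to 2.44% of reads). Genes passing filterByExpr were TMM-scaled and each line was tested in edgeR 4.0.16 (R 4.3.3) with the robust quasi-likelihood F-test, Benjamini-Hochberg adjusted over all genes tested; a call is an adjusted p under 0.05. The difference between lines came from a fit of 8 libraries. CPM use TMM library sizes, CPM per kb the union of GENCODE M21 exons, and log2 fold changes set induced over normal and knockout over empty-vector cells. Errors are standard errors of the fit, with 2 libraries per group.

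The members, pathway lists and marker lists were chosen with earlier results of these data known. Library values were printed for the 4 called members with the largest rise and the 4 with the largest fall per group and line, for their paralogues and, in part, for others; up to 2 genes were named per pathway list and direction. The results of 1 pathway list are not reported here. Alternatives were RLE and upper-quartile factors, DESeq2 1.42.0, limma-voom (limma 3.58.1), a filter at a mean of 1 CPM, no filter, a replicate block, a joint fit, a test against 1.5-fold and each library left out; a lowess correction against exon length was added after the data were seen. The tests were checked on simulated data. Tables and figures were made with Python 3.11.15, matplotlib 3.10.9, SciPy 1.17.1, NumPy 2.4.6 and pandas 2.3.3.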

Additional observations from a re-analysis of the deposited data

Results flagged for a closer look

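For 25 members the log2 fold change of induced over normal 3T3 cells differed from that of knockout over empty-vector Scid.adh cells, by the test of the difference itself in the fit of 8 libraries (edgeR, adjusted p under 0.05). Over all 15854 genes of the fit the difference was called for 30.7%. Of the 25, 17 were among the 21 members with enough reads in both groups of both lines, and the others had few Scid.adh reads. The agent and the direction of the TCF-1 change differ between the lines, so opposite responses give a wide difference. The 3T3 value was the higher by 1.66 for Tagln2, 1.17 for Actn1, 0.85 for Svil, 0.60 for Myh9 and Tln1 (0.603 and 0.596), 0.54 for Csrp1, 0.50 for Vasp (0.505), 0.42 for Myl6, 0.40 for Pxn (0.404) and Tpm3 (0.4), 0.33 for Actn4 and 0.31 for Srf.

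The 3T3 value was the lower for Pdlim7 (-0.67), Pdlim5 (-0.63), Myh10 (-0.60), Lpp (-0.57) and Tpm1 (-0.52). Of these, Pdlim7 (-0.39 without the first empty-vector library and -0.43 without the second knockout library), Myh10 (-0.40 without the first knockout library) and Lpp (-0.48 without the second empty-vector library) lost their call in several settings. Myh9 and Srf lost theirs in other settings too, and 12 of these 17 differences were called in every setting tried.

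Another 8 members were called with few reads in Scid.adh. Yap1 (-1.91) was over the filter there in the knockout alone, and Vcl (1.41), Tes (-3.997), Cnn3 (-3.51), Tpm2 (-3.45), Actg2 (-3.45), Fhl2 (-2.24) and Zyx (-1.99) entered the fit through their 3T3 reads, with at most 19 counts in any Scid.adh library. Their sizes are no measure of a response: leaving out a library moved Tes between -6.589 and -3.134, Actg2 between -6.913 and -2.524, Cnn3 between -6.107 and -2.571 and Vcl between 0.954 and 1.792.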

How the results depend on the processing

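Leaving aside the test against 1.5-fold, 18 of the 30 member calls in 3T3, 6 of the 11 in Scid.adh and 15 of the 25 differences between lines were called in every setting. Those of Scid.adh were Actn1, Actn4, Pxn, Svil, Tagln2 and Tln1. The joint fit and the fit without a filter tested every member in Scid.adh, also those with few reads there. Their counts of calls are therefore not over the same genes as those of the main fit. In 3T3, 17 members rose and 13 fell; the joint fit called 9 rises, the test against 1.5-fold 1 rise and 2 falls, and leaving out a library 12 to 16 rises and 9 to 14 falls. In Scid.adh, 3 rose and 8 fell; the joint fit called 11 rises, no filter 5, the test against 1.5-fold 0 rises and 2 falls, and leaving out a library 3 to 5 rises and 7 to 11 falls, with 5 rises without the first knockout library. For the differences, 12 were lower in 3T3; DESeq2 called 6, and leaving out a library gave 7 to 10, the fewest without the first empty-vector library. With the replicate number as a block the calls were 17 and 14 in 3T3, 4 and 7 in Scid.adh and 13 and 11 for the difference. Libraries with the same number share only the number: the correlation of their deviations was 0.03 in 3T3 and -0.007 in Scid.adh.

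The sign turned for these values, of which only Cald1 in 3T3 had passed, and the cause was not tested. In 3T3 it turned with the exon length correction for Cnn3 (-0.009), Cald1 (0.002) and Lpp (0.078), without the second induced library for Cnn1 (0.264) and Pdlim7 (0.022), and without the first normal library for Pdlim7 (0.018). In Scid.adh it turned for Acta2 with limma-voom (0.071), Flna without a filter (-0.032) or without the second knockout library (-0.187), and Csrp1 without the second empty-vector library (-0.053). Over the left-out libraries of their line, values otherwise reached -0.672 for Cnn1, -0.042 for Pdlim7, 0.2 for Flna and 0.187 for Csrp1. Among differences it turned for Tagln (0.806) and Tpm4 (0.215) without the second knockout library, for Acta2 (-0.793), Tagln (0.036) and Tpm4 (0.27) without the first empty-vector library, for Cnn2 (0.045) without the second, and for Cald1 (0.711) and Flnc (0.165) without the first knockout library. Their other extremes were 1.032 for Acta2, -0.908 for Tagln, -0.147 for Cnn2, -0.389 for Tpm4, -2.118 for Cald1 and -0.501 for Flnc.

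Over all genes, the calls of 3361 rises and 3332 falls in 3T3 became 1977 and 2035 with DESeq2 and 480 and 437 against 1.5-fold. Those of 1861 and 1899 in Scid.adh became 880 and 1080 with DESeq2, 2455 and 1215 with upper-quartile factors, 565 and 159 against 1.5-fold, 1059 and 1162 without the first empty-vector library and 1180 and 1198 without the second. For the differences, 2551 lower calls became 1530 with DESeq2. Groups of 2 libraries and, in Scid.adh, 17 members with at most 19 counts per library limit what could be called.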
